A study of Mus musculus with 8 samples.

Results

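Fragments of glycine tRNAs were followed in islet macrophages (iMACs) of db/db and wild-type (WT) mice, in a small RNA sequencing table of tRNA-derived fragments (tRFs). A fragment was taken as a member where its name in the table contained tRNA-Gly-GCC, tRNA-Gly-CCC or tRNA-Gly-ACC, and entries with the same sequence were joined under all their names. This gave 7 fragments of the 144 distinct fragments in the table (8 of its 242 entries), with 958 counts in all. They were the 30-nt 5′tRF of tRNA-Gly-GCC, 5 fragments of tRNA-Gly-CCC and 1 short fragment whose sequence is shared by tRNA-Gly-ACC and 2 valine tRNAs.

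The db/db libraries came from male mice of 8 weeks with the genotype BKS.Cg-Dock7m+/+ LeprdbJ, which lack a working leptin receptor and become obese and hyperglycemic. The WT libraries came from male mice of the same age and background, BKS.Cg-Dock7m+/+, so the Dock7m allele was carried by both groups. There were 4 libraries per genotype. The study describes independent sorting preparations, for which islets of several mice were pooled, with more WT than db/db mice per pool. The numbers of db/db mice it gives do not settle whether each db/db library had a pool of its own. The cells collected carried the surface markers CD45, CD11b, CD11c and F4/80. The table held only tRNA fragments, so the identity of the sorted cells could not be checked against marker genes.

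When cells are stressed, endonucleases such as angiogenin can cut mature tRNAs in the anticodon loop, which leaves a 5′ piece and a 3′ piece, both named tRNA-derived stress-induced RNAs (tiRNAs). Shorter fragments end in the D or T arm, or carry the CCA that is added to the 3′ end of every mature tRNA. Isoacceptors are tRNAs that carry the same amino acid but read different codons, and GCC, CCC and ACC are the anticodons of the glycine tRNAs listed here. The long 5′tRF of Gly-GCC is among the most widely described tRNA fragments and is abundant in mammalian serum and sperm.

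The sequences are shown because they set what can be told apart among the 3 isoacceptors. In the 5′ fragments the capitals mark positions 8 to 18, after the acceptor stem, where the bases that all 5 share read TNGTNNAGTGG (N where they differ). This stretch overlaps the A box, an internal promoter element of tRNA genes.
Gly-GCC 5′ 30 nt: gcatgggTGGTTCAGTGGtagaattctcgc
Gly-CCC 5′ 30 nt: gcgccgcTGGTGTAGTGGtatcatgcaaga
Gly-CCC 5′ 29 nt: gcgccgcTGGTGTAGTGGtatcatgcaag
Gly-CCC 5′ 27 nt: gcgccgcTGGTGTAGTGGtatcatgca
Gly-ACC/Val-AAC/Val-CAC 5′ 18 nt: gtttccgTAGTGTAGTGG
In the 3′ fragments of Gly-CCC the capitals mark the strand that pairs with the first 7 bases of the tRNA, in the acceptor stem.
Gly-CCC 3′ 18 nt: ttcccggGCGGCGCacca
Gly-CCC 3′ 17 nt: tcccggGCGGCGCacca

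The letters TNGTNNAGTGG, searched on the strand of the fragment, were found in 16 of the 144 fragments (11.1%), the 5 they were read from included. The 30-nt fragments of Gly-GCC and Gly-CCC had the same base at 18 of 30 positions. The longest run shared at the same place was 7 bases, from position 14 to 20, so neither could be counted as the other under perfect matching. The 18-nt fragment could not be assigned to a glycine tRNA alone. It was the start of 5 longer fragments in the table, of 22 to 30 nt, and all 5 had a valine name while 0 had a glycine name. The longest fragment in the table was 30 nt, the length of the Gly-GCC fragment.

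RefSeq lists 14 Gly-GCC genes on 7 chromosomes of GRCm38.p6, 5 of them on chromosome 1. It lists 6 Gly-CCC genes on 4 chromosomes and 1 Gly-ACC gene, on chromosome 11. Since a fragment can match several of these copies, its gene of origin was not assigned. The Gly-CCC gene n-TGccc7 was used to place the Gly-CCC fragments. It lies on the plus strand of chromosome 17 from 25875088 to 25875158 (GRCm38.p6), within the annotated 5′ UTR of a transcript of Mettl26. The 30-nt fragment ran over positions 1 to 30 of this tRNA and ended at the last base of the anticodon stem, with 0 bases left before the anticodon loop (positions 31 to 37). The 29-nt and 27-nt fragments ended 1 and 3 bases before the loop. The 3′ fragments ran over positions 57 to 74 and 58 to 74 and ended in the added CCA. The Gly-GCC fragment was taken as a 5′tRF as the study names it, and the 18-nt fragment as 5′ because it starts the longer valine fragments.

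**Figure D1:**
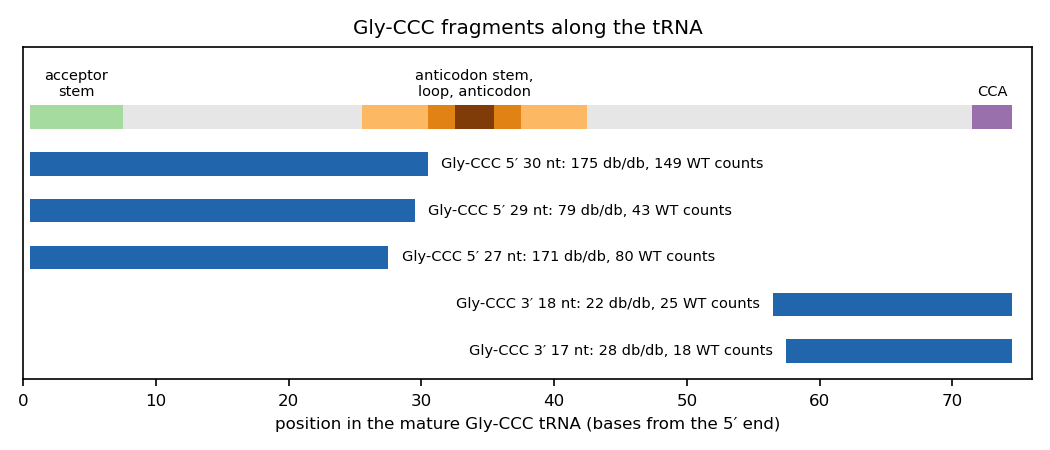
Places of the 5 Gly-CCC fragments along the mature tRNA, in bases from its 5′ end, with the counts of each fragment summed over the 4 db/db and the 4 WT libraries. The 30-nt fragment stops at the edge of the anticodon loop, and both 3′ fragments end in CCA.

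Over all listed fragments, db/db replicates 1 to 4 held 2521, 1976, 1808 and 1710 counts, against 2182, 1477, 4567 and 2009 counts in WT replicates 1 to 4. These sums cover the listed fragments only and are not the depth of the libraries. Levels are given below as percent of these sums, so a higher percent cannot be told apart from fewer counts of other fragments, nor can a change within macrophages be told apart from a change in which cells were sorted. In 3 libraries the fragments of Ser-GCT, Cys-GCA and Leu-TAG took an unusually large share, at 34.6% in db/db replicate 1 and at 43% and 36.6% in WT replicates 3 and 4, against 6.86% to 10% in the other 5 libraries. The closest pair of libraries was db/db replicates 3 and 4, with a chi-square of the counts of 1.46 per degree of freedom, against 3.35 or more for the other pairs.

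The Gly-GCC 5′tRF was higher in db/db iMACs. It had 9, 14, 15 and 15 counts in db/db replicates 1 to 4, against 1, 3, 5 and 4 counts in WT replicates 1 to 4. This was 0.357%, 0.709%, 0.830% and 0.877% of the listed counts in db/db, against 0.0458%, 0.203%, 0.109% and 0.199% in WT. Every db/db library lay above every WT library, with db/db replicate 1 the lowest of its group. The mean was 0.693% ± 0.235 in db/db and 0.139% ± 0.0759 in WT iMACs (SD, n = 4 each), a ratio of 4.97. Counting error was wide at this depth, with a 95% Wilson interval of 0.188% to 0.677% in db/db replicate 1 and of 0.0691% to 0.596% in WT replicate 2, so these neighbours overlap. The difference of 0.554 points had an exact permutation p = 0.0286 (two-sided, 4 against 4 libraries), the smallest that 70 assignments allow, and 0.0571 when adjusted over the 2 shares tested. Without WT replicate 1, 2 or 3 the adjusted p was 0.114 by the same exact test, with differences of 0.523, 0.575 and 0.544 points. The study named this fragment from these same libraries, so the test is not independent evidence.

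In the edgeR fit over all 144 fragments the Gly-GCC 5′tRF had a log2 fold change of 2.45 (db/db over WT, SE 0.61, edgeR adjusted p = 0.0709) and was called higher at the study's thresholds, which are a fold change over 2 at an adjusted p under 0.1. Over all fragments 11 of 144 were called higher (7.64%) and 0 were called lower (0%). At an unadjusted p under 0.05, edgeR placed 23 higher and 2 lower. At the thresholds above, DESeq2 called 15 higher and 0 lower. The Gly-GCC 5′tRF was also among the 9 fragments (6.25%) for which every db/db library lay above every WT library in percent of listed counts, while 2 fragments (1.39%) showed the opposite order. The call of the Gly-GCC 5′tRF was lost without db/db replicate 2, 3 or 4 (edgeR adjusted p = 0.155, 0.182 and 0.200), and without WT replicate 1, 3 or 4 (0.158, 0.214 and 0.110), with log2 fold changes from 2.10 to 2.71 over all libraries left out in turn. The filter filterByExpr removed the Gly-GCC 5′tRF, and 64 of the 144 fragments had fewer counts than its total of 66. The count of 11 was itself 20 without db/db replicate 1, 3 without db/db replicate 2, 1 without db/db replicate 3 or 4 and 2 without WT replicate 1, 3 or 4.

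The Gly-GCC 5′tRF stayed higher in db/db iMACs when the libraries that stand apart were set aside. Without db/db replicate 1 and WT replicates 3 and 4 its log2 fold change was 3.08 (edgeR adjusted p = 0.0109), and with the fragments of Ser-GCT, Cys-GCA and Leu-TAG left out of the listed counts, a choice made after seeing the data, the difference was 0.594 points. Within the libraries numbered 17 to 20 it averaged 0.533% in db/db and 0.124% in WT, and within those numbered 21 to 24 it averaged 0.853% in db/db and 0.154% in WT. With a term for these number ranges its log2 fold change was 2.46 (edgeR adjusted p = 0.0611).

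**Figure D2:**
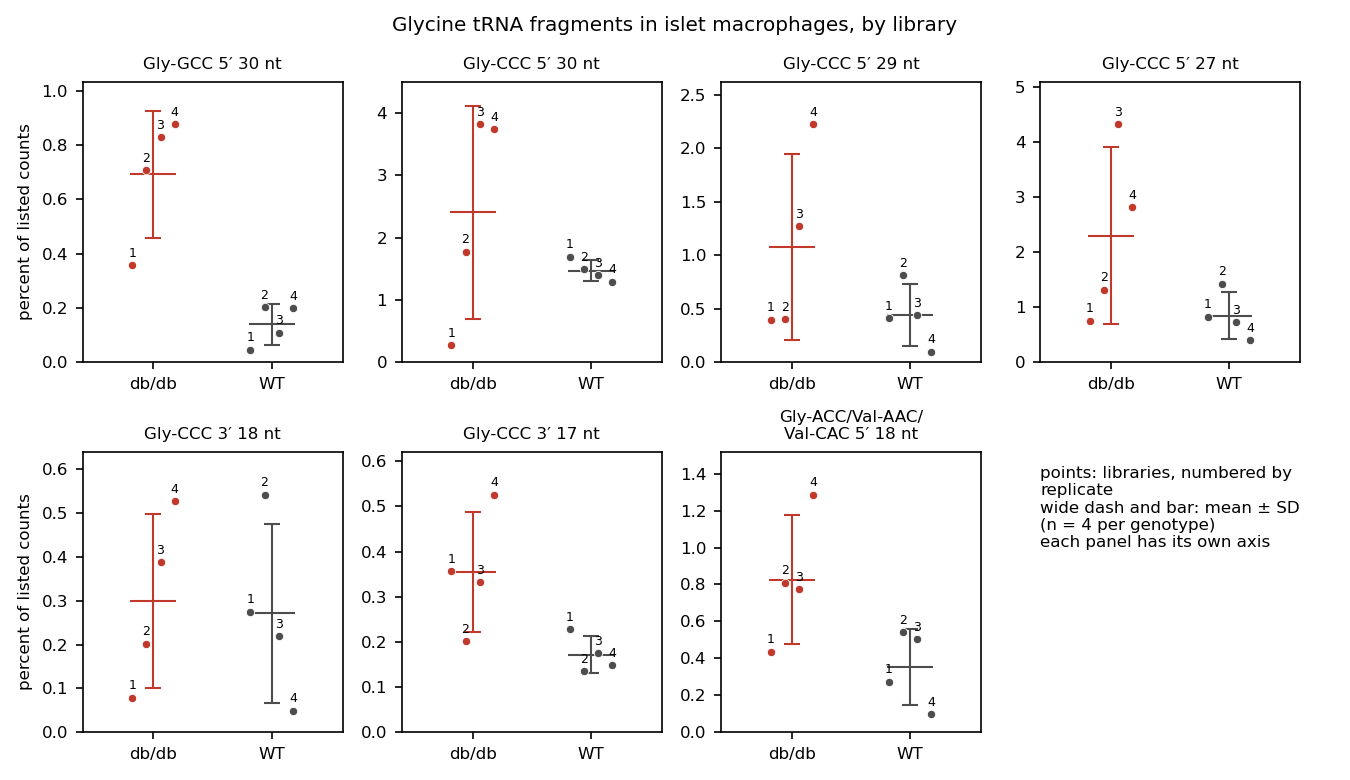
Level of each of the 7 glycine fragments as percent of listed counts in the 4 db/db and 4 WT libraries, with points numbered by replicate and dashes and bars for mean ± SD. Of the 7 only the Gly-GCC 5′tRF has all db/db libraries above all WT libraries, beside 9 of all 144 fragments (6.25%). Each panel has its own axis.

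The 5′ fragments of Gly-CCC had 324, 122 and 251 counts over all libraries for the 30-, 29- and 27-nt forms, against 66 for the Gly-GCC 5′tRF, and 0 of the 3 were called. The 30-nt form, which ends at the anticodon loop, had 7, 35, 69 and 64 counts in db/db replicates 1 to 4, against 37, 22, 64 and 26 counts in WT replicates 1 to 4. Its share of the listed counts was 0.278% in db/db replicate 1 and 1.77% to 3.82% in the other db/db libraries, against 1.29% to 1.70% in WT. Thus 3 of 4 db/db libraries lay above all WT libraries and db/db replicate 1 lay below all of them. Its log2 fold change of 0.95 did not pass (SE 0.77, edgeR adjusted p = 0.607), with 2.40% ± 1.70 in db/db and 1.47% ± 0.170 in WT (SD, n = 4 each). It passed only without db/db replicate 1 and WT replicates 3 and 4 together (log2 fold change 1.28, edgeR adjusted p = 0.0731).

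The shorter 5′ forms of Gly-CCC had larger fold changes that did not pass. The 29-nt form had 10, 8, 23 and 38 counts in db/db replicates 1 to 4, against 9, 12, 20 and 2 counts in WT replicates 1 to 4 (log2 fold change 1.57, SE 0.76, edgeR adjusted p = 0.325). The 27-nt form had 19, 26, 78 and 48 counts in db/db replicates 1 to 4, against 18, 21, 33 and 8 counts in WT replicates 1 to 4 (log2 fold change 1.74, SE 0.73, edgeR adjusted p = 0.249). For both forms db/db replicates 3 and 4 lay above all WT libraries in percent of listed counts, while db/db replicates 1 and 2 lay within the WT range. The 27-nt form was called without db/db replicate 1 (log2 fold change 2.05, edgeR adjusted p = 0.0498), a fit that keeps the high shares of Ser-GCT, Cys-GCA and Leu-TAG fragments in WT libraries only, and without all 3 libraries with such shares (1.63, edgeR adjusted p = 0.0366).

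All 5′ forms of Gly-CCC together held 1.43%, 3.49%, 9.40% and 8.77% of the listed counts in db/db replicates 1 to 4, against 2.93%, 3.72%, 2.56% and 1.79% in WT replicates 1 to 4. Both highest libraries were db/db replicates 3 and 4, and the lowest was db/db replicate 1. Within these 5′ counts the 30-nt form made up 38.4% ± 13.3 in db/db and 56.2% ± 13.2 in WT (SD, n = 4 each). The 27-nt form made up 42.1% ± 9.13 in db/db and 29.2% ± 6.62 in WT, and the 29-nt form made up 19.6% ± 8.18 in db/db and 14.6% ± 6.84 in WT. The ranges of the 30-nt share overlapped, at 19.4% to 50.7% in db/db and 40% to 72.2% in WT, and the lowest value, of db/db replicate 1, rested on 36 counts. These length shares are a description and were not tested.

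**Figure D3:**
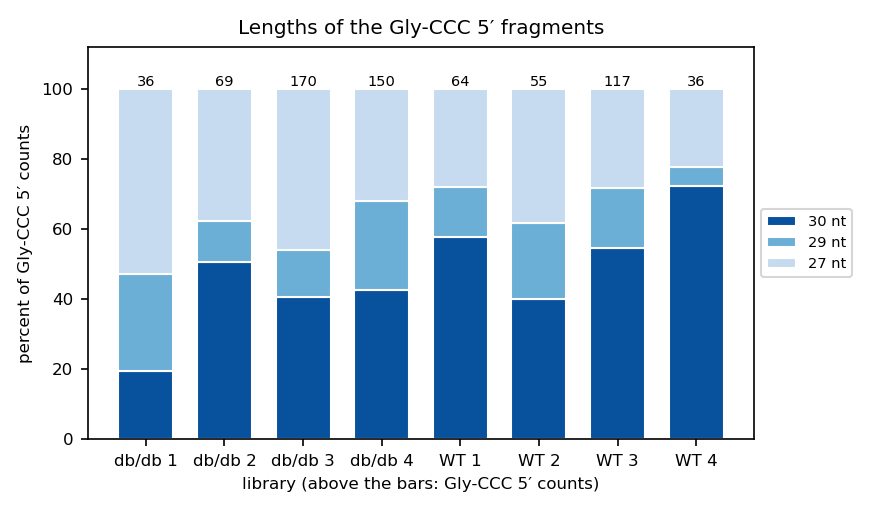
Share of the 30-, 29- and 27-nt forms among the Gly-CCC 5′ counts of each library, with the number of such counts above each bar. The 30-nt share runs from 19.4% to 50.7% in db/db and from 40% to 72.2% in WT libraries.

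The 3′ fragments of Gly-CCC, which come from the other end of the same tRNA and hold its CCA, were rare in every library. The 18-nt form had 2, 4, 7 and 9 counts in db/db replicates 1 to 4, against 6, 8, 10 and 1 counts in WT replicates 1 to 4. Its groups overlapped throughout (log2 fold change 0.42, SE 0.76, edgeR adjusted p = 0.804), and its fold change had the opposite sign without db/db replicate 4 (-0.058) or WT replicate 4 (-0.021). The 17-nt form had 9, 4, 6 and 9 counts in db/db replicates 1 to 4, against 5, 2, 8 and 3 counts in WT replicates 1 to 4. In percent of listed counts 3 of 4 db/db libraries lay above all WT libraries (0.354% ± 0.133 in db/db and 0.172% ± 0.0413 in WT, SD, n = 4 each), and its log2 fold change of 1.16 did not pass (SE 0.59, edgeR adjusted p = 0.352).

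Gly-CCC 5′ counts exceeded Gly-CCC 3′ counts 3.27, 8.63, 13.1 and 8.33 times in db/db replicates 1 to 4, against 5.82, 5.5, 6.5 and 9 times in WT replicates 1 to 4. The ranges overlapped, with db/db replicates 1 and 3 at the ends. All 3 glycine fragments of 28 nt or more in the table were 5′ fragments.

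The 18-nt fragment shared by Gly-ACC, Val-AAC and Val-CAC had 11, 16, 14 and 22 counts in db/db replicates 1 to 4, against 6, 8, 23 and 2 counts in WT replicates 1 to 4. It averaged 0.827% ± 0.350 in db/db and 0.355% ± 0.207 in WT (SD, n = 4 each), with 3 of 4 db/db libraries above all WT libraries. Its log2 fold change of 1.36 did not pass (SE 0.61, edgeR adjusted p = 0.278), but it passed without db/db replicate 1 and WT replicates 3 and 4 together (1.57, edgeR adjusted p = 0.0731). It was the only fragment with a Gly-ACC name, and RefSeq lists 8 Val-AAC and 11 Val-CAC genes beside the single Gly-ACC gene. How much of it came from glycine tRNA cannot be told apart.

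All 7 glycine fragments had a positive log2 fold change, with a median of 1.36, against 63 of 144 positive and a median of -0.11 over all fragments. With library totals in place of TMM factors the median over all fragments was -0.32, a shift of 0.206, and the 7 fold changes stayed positive. Of the 7 fragments 1 was called higher and 0 lower, beside 11 of 144 called higher (7.64%) and 0 lower over all fragments. Before adjustment 3 of the 7 had an edgeR p below 0.05, all with a positive fold change, beside 23 higher and 2 lower of the 144. The 6 fragments other than the Gly-GCC 5′tRF had a median of 1.26 and 0 calls. Among the 15 other fragments of 28 nt or more, from tRNAs for other amino acids, 13 were positive with a median of 1.72. Of them 4 were called higher and 0 lower, beside the same 7.64% over all fragments. For 4 of the 15 every db/db library lay above every WT library in percent of listed counts, beside 6.25% over all fragments. The 3 glycine fragments of that length had a median of 1.57 and 1 call, that of the Gly-GCC 5′tRF.

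**Figure D4:**
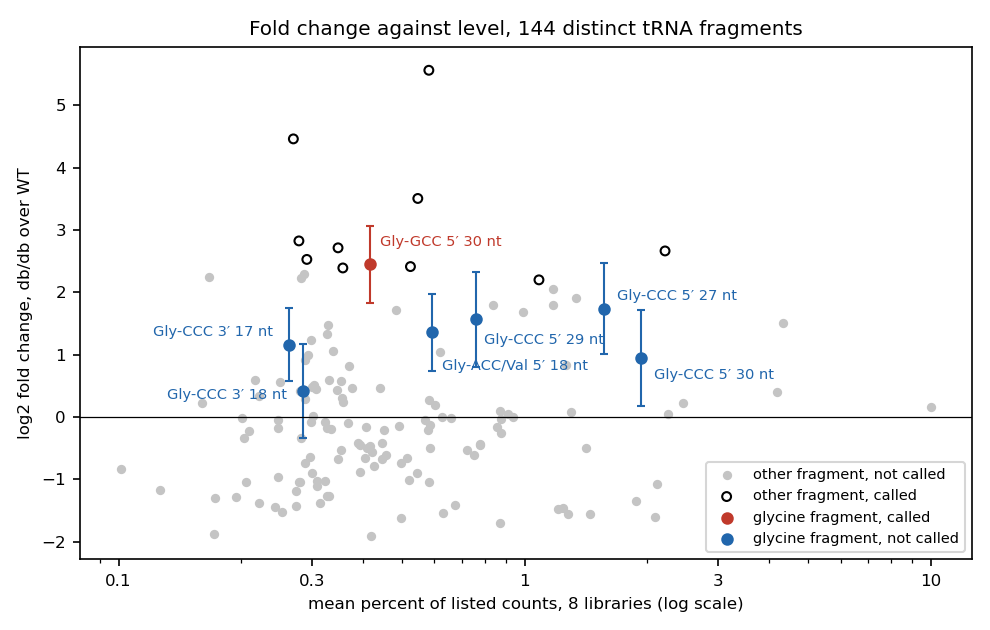
Log2 fold change (db/db over WT) against mean percent of listed counts over 8 libraries (log axis) for the 144 distinct fragments, with SE bars on the 7 glycine fragments. The Gly-GCC 5′tRF is the 1 glycine fragment called, at 2.45, and the other 6 lie between 0.42 and 1.74.

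The Gly-GCC 5′tRF was then set against the other glycine fragments of the same library, so that the rest of the library cancels. It made up 13.4%, 13.1%, 7.08% and 7.32% of the glycine counts in db/db replicates 1 to 4, against 1.22%, 3.95%, 3.07% and 8.70% in WT replicates 1 to 4. In db/db 2 of 4 libraries lay above all WT libraries, and WT replicate 4, with 4 of 46 glycine counts (95% Wilson interval 3.43% to 20.3%), lay above db/db replicates 3 and 4. The mean was 10.2% ± 3.50 in db/db and 4.23% ± 3.19 in WT (SD, n = 4 each), a difference of 5.99 points (two-sided exact permutation p = 0.0857, and 0.0857 adjusted over the 2 shares). That p is under the threshold of 0.1 used here and above 0.05, and it was 0.114 without db/db replicate 1 or 2 and 0.171 without WT replicate 1, 2 or 3 (exact permutation test, adjusted over the 2 shares). With only fragments that have glycine names alone the difference was 7.21 points (exact permutation, adjusted p = 0.0857).

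Against the Gly-CCC fragment of the same length the contrast ran the same way. There were 175 counts of the 30-nt Gly-CCC fragment for 53 of the Gly-GCC 5′tRF in db/db iMACs, 3.30 for each, against 149 for 13 in WT, 11.5 for each. By library the ratio was 0.778, 2.5, 4.6 and 4.27 in db/db replicates 1 to 4, against 37, 7.33, 12.8 and 6.5 in WT replicates 1 to 4. All db/db libraries lay below all WT libraries, but the WT ratios rest on 1, 3, 5 and 4 Gly-GCC counts. That of db/db replicate 1 rests on 9 Gly-GCC and 7 Gly-CCC counts. The ratio of these 30-nt fragments was chosen after the counts were seen and was not tested.

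**Figure D5:**
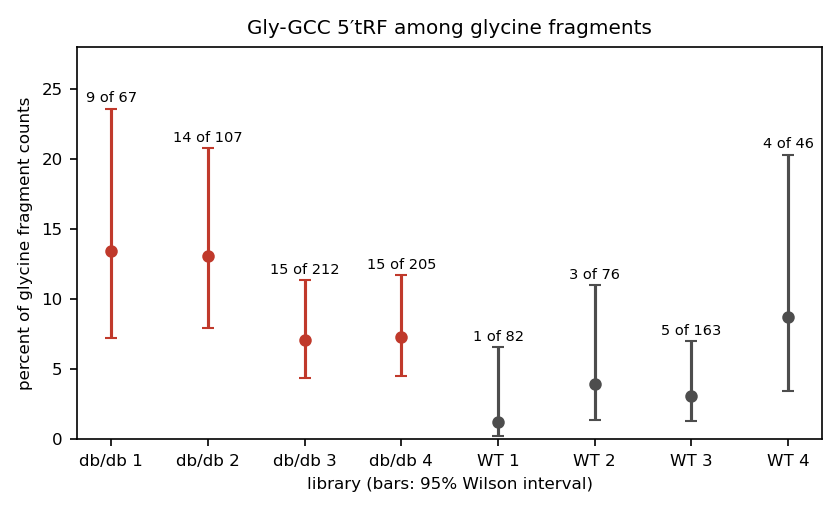
Gly-GCC 5′tRF as percent of the glycine fragment counts of each library, with 95% Wilson intervals and the counts behind each point. WT replicate 4, at 8.70% with a wide interval, lies above db/db replicates 3 and 4.

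The other glycine fragments together made up 2.30%, 4.71%, 10.9% and 11.1% of the listed counts in db/db replicates 1 to 4, against 3.71%, 4.94%, 3.46% and 2.09% in WT replicates 1 to 4. They averaged 7.25% ± 4.44 in db/db and 3.55% ± 1.17 in WT (SD, n = 4 each). The order differed between the number ranges of the libraries. Within numbers 17 to 20 the means were 3.50% in db/db and 4.33% in WT, and within numbers 21 to 24 the values were 10.9% and 11.1% in db/db, against 3.46% and 2.09% in WT. As percent of listed counts the Gly-GCC 5′tRF was higher in db/db in both ranges, as given above. As percent of glycine counts it averaged 13.3% in db/db and 2.58% in WT within numbers 17 to 20. Within numbers 21 to 24 its means were 7.20% in db/db and 5.88% in WT, with WT replicate 4 above db/db replicates 3 and 4. Whether the ranges differ was not tested.

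The 5 fragments without a glycine name whose log2 CPM was most like that of the Gly-GCC 5′tRF over the 8 libraries were a 30-nt fragment of Asp-GTC (Pearson r = 0.96), a 28-nt fragment of Val-AAC and Val-CAC (0.96), a 24-nt fragment of Lys-TTT (0.95), a 26-nt fragment of Asp-GTC (0.93) and a 25-nt fragment of Leu-CAG (0.89). The r of the other glycine fragments with the Gly-GCC 5′tRF ran lower, from 0.38 for the 18-nt 3′ fragment to 0.79 for the 27-nt 5′ fragment of Gly-CCC. These values are descriptions over 8 points that share libraries, scaling and genotype groups, and the 5 were taken as the highest. With library totals they were 0.97, 0.95, 0.94, 0.91 and 0.86 in the same order. The log2 fold changes of these 5 fragments were 5.56, 2.06, 3.51, 4.46 and 2.20, against 2.45 for the Gly-GCC 5′tRF. All but the 28-nt fragment were called higher, beside 7.64% over all fragments. They were picked for likeness to a called fragment, so these calls add no support. The 30- and 26-nt fragments of Asp-GTC had 0 or 1 counts in every WT library.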

How the data were processed

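RNA of sorted iMACs (miRNeasy micro) was made into QIAseq miRNA libraries, in which each molecule carries an identifier. The authors collapsed identical reads by identifier, aligned them to GRCm38.p6 and kept perfect bowtie matches to mature tRNAs. The deposited counts are molecules per fragment. The deposited log2 values were not used.

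The quasi-likelihood test of edgeR 4.0.16 (R 4.3.3) was run on 144 distinct sequences, with TMM factors (0.847 to 1.36), genotype as the only term and no filter on low counts, since none is named by the study and the fragments are rare. Adjustment was by Benjamini-Hochberg over all fragments. The SE of an edgeR log2 fold change was derived as its absolute value divided by the square root of the quasi-likelihood F statistic. DESeq2 1.42.0, a filterByExpr filter (minimum count 10, minimum total 15), a filter of 5 counts in 4 libraries, library totals, a term for library numbers, every deposited entry and each library left out were alternatives. Shares were tested by exact permutation over 70 assignments (Python 3.11.15). Wilson intervals (95%) cover counting error only. Log2 CPM used a prior count of 2. The scripts were tested on simulated data.

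Every fragment with a glycine name was described. The fragments most like the Gly-GCC 5′tRF were the 5 with the highest r and no glycine name. The list of other long fragments was taken by length (28 nt or more) rather than by position, because tRNA sequences of other amino acids were not used here, and its members are not named. The 5′ fragments of 1 tRNA are not reported by name and were left out of the most like fragments. Members and lists were chosen with earlier results of these data known. Libraries were numbered in accession order, which pairs none of them. P values measure the spread between libraries, which were taken as separate sorting preparations. The chi-square of the counts over its degrees of freedom was 1.46 for db/db replicates 3 and 4, the closest pair, and at least 3.35 for every other pair. This sets pairs against counting noise only, and whether both came from 1 pool was not tested. They were kept as separate samples, as labelled.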

Additional observations from a re-analysis of the deposited data

How the results depend on the processing

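The count of fragments called higher in db/db was 11 of 144. It was 6 of the 44 fragments that filterByExpr kept, and 3 of 242 with every deposited entry. Over the 144 fragments it was 4 with library totals and 4 with a term for library numbers. It was 23 without db/db replicate 1 and WT replicates 3 and 4. The last fit also called 10 lower. With 1 library left out, 1 to 20 were called higher and 0 to 7 lower. Glycine calls were 0 with filterByExpr (which kept 3 of the 7) or every entry, 4 without the 3 libraries, and 0 to 2 with 1 library left out. For the Gly-GCC 5′tRF the log2 fold change with every entry was 2.22 (adjusted p = 0.115, edgeR), and 2.10 to 2.71 with 1 library left out, where 6 of 8 fits lost the call. Its share of listed counts differed by 0.681 points without the 3 libraries (exact permutation, adjusted p = 0.1, the smallest that 3 against 2 libraries allow) and by 0.492 to 0.666 points with 1 left out. Its share of glycine counts differed by 6.58 points without the 3 libraries (adjusted p = 0.1, the same limit) and by 4.93 to 7.48 points with 1 left out. The share of the other glycine fragments differed by 2.11 points with every entry and by 2.42 to 5.35 points with 1 left out. The Gly-CCC 18-nt 3′ fragment ranged from -0.058 to 0.81, the lowest without db/db replicate 4, and was -0.021 without WT replicate 4. Apart from this fragment, the glycine fragments kept a positive fold change under every alternative that gave a value. The causes of these changes were not tested. No paired analysis was possible because the labels give no replicate numbers that groups share. A total of 66 counts limits the precision of the Gly-GCC 5′tRF.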

Other observations

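Within each genotype, the 4 libraries were searched for 1 that stood apart in the level of a glycine fragment, in the share of the Gly-GCC 5′tRF or of the other glycine fragments, in the share of the 30-nt form of Gly-CCC, or in the ratio of its 5′ to its 3′ counts. Of the 22 groups of 4 libraries examined with Dixon's gap ratio, 0 held such a library, and chance gives about 1 in 20. The ratio looks for 1 library apart from the rest. It cannot show a split into pairs, as in the share of the other glycine fragments in db/db.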
